A study of Mus musculus with 16 samples.

Results

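The mitochondrial ribosomal protein genes were followed in a cell line of murine acute myeloid leukemia (AML) that carries MLL-AF9, a fusion gene known to transform blood progenitors. Members were all protein-coding mouse genes whose symbol is Mrpl or Mrps followed by a number, with pseudogenes left out, which gave 78 of the 53801 genes in the count table. Membership rested on the symbol and gene type alone, although earlier results of these data were known when the set was chosen. Of the 78 genes, 51 encode proteins of the large subunit and 26 of the small subunit. Mrps36 belongs by its symbol only, since its product is known as a component of the oxoglutarate dehydrogenase complex. RNA sequencing covered 16 libraries in 4 groups of 4: control cells at 20% oxygen, MCT4-KO cells at 20% oxygen, control cells at 2% oxygen and MCT4-KO cells at 2% oxygen. All groups shared the leukemia line, RPMI medium with serum, IL-3 and SCF, and the induction of Cas9 with 4-OHT (4-hydroxytamoxifen). Control cells carried a guide RNA without a target. In MCT4-KO cells the guides were directed at the gene of MCT4, the lactate exporter encoded by Slc16a3, and the guides' positions were not given in the sources used here. The layout asks how oxygen and the loss of MCT4 act on the genes, alone and together, in 1 line. The labels number the replicates without saying that they were separate cultures, so a p-value measures only how these libraries vary, which may be technical.

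Mitochondria keep a small genome whose messenger RNAs encode core subunits of the respiratory chain and of ATP synthase, and a ribosome of their own translates them. The ribosomal RNAs come from the mitochondrial genome, while every protein of the particle is encoded in the nucleus, made in the cytosol and imported. Some of these proteins have counterparts in the bacterial ribosome and others are found in mitochondria only. The small subunit binds messenger RNA and decodes it, and the large subunit joins the amino acids and holds the exit tunnel.

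Sequence upstream of the start was looked at because motifs for the factors NRF1, ETS proteins (the family of GABP) and YY1 are known from promoters of nuclear genes for mitochondria. Windows from 250 bases before to 50 after the start were taken from RefSeq (GRCm38.p6) and matched 69 of the 78 genes. The 4 stretches that follow belong to genes that carried the main changes and whose upstream sequence is not covered by an exon of a protein-coding gene: Mrps6 and Mrps2 fell in low oxygen, Mrpl45 rose, and Mrpl9 fell further in MCT4-KO cells. Each is written 5′ to 3′ in the direction of the gene, ends before the first exon and has motif matches in capitals. These are the NRF1 motif (GCGCA, any base, then GCGC) in Mrpl45 and Mrpl9 and, in Mrps2, the reverse complement of ACGTG, the core letters of the hypoxia response element. In Mrps6 none of the letters searched occurs in the stretch shown.
Mrps6 (chr16:92058086-92058269, plus strand): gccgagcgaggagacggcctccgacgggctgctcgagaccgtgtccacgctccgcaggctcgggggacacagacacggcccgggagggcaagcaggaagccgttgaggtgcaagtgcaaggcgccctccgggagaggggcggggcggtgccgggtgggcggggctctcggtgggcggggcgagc
Mrps2 (chr2:28467816-28468065, plus strand): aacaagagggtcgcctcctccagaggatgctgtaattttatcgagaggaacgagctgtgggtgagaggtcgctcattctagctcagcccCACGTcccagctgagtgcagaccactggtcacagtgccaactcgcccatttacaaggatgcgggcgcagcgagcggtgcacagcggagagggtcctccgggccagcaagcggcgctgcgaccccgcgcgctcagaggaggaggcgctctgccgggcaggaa
Mrpl45 (chr11:97315466-97315715, plus strand): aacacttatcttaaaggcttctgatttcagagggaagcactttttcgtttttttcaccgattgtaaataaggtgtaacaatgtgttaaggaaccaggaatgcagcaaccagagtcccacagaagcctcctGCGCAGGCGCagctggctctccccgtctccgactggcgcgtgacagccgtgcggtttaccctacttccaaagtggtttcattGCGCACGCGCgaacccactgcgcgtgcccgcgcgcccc
Mrpl9 (chr3:94443086-94443317, plus strand): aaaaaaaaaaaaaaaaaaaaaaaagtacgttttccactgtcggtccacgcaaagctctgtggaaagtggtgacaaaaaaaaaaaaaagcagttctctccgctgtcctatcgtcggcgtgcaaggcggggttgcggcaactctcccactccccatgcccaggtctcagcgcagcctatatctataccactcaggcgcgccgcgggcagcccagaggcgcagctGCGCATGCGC

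Libraries held 21192179 to 28871459 estimated counts, and 13774 genes passed the filter on low counts, among them all 78 members. Slc16a3, the targeted gene, averaged 209.9 ± 23.0 CPM in controls and 79.9 ± 11.1 CPM in MCT4-KO libraries at 20% oxygen, and 812 ± 23.4 and 365 ± 5.83 CPM at 2% (SD, n = 4), without overlap at either level. Of 10 myeloid leukemia markers 9 had a mean of at least 1 CPM, and T cell and B cell markers summed to at most 0.0943 CPM in any library. Erythroid, fibroblast and epithelial markers summed to at most 3.72 CPM. Control replicate 4 at 2% oxygen stood apart from the other 3 libraries of its group, with a chi-square per gene of 8.41 to 12.5 against 2.51 to 3.29 among those 3. It held the highest value of its group for 51 of the 78 members, so results given below that rest on it are also given without it. Leaving it out ended 5 member calls and added 3 for low oxygen in control cells, ended 6 and added 2 for the knockout at 2% oxygen, and added 2 in the interaction. Libraries at 20% oxygen also differed, with a chi-square per gene of 3.53 to 8.83 between controls and 2.47 to 7.43 between MCT4-KO libraries. There control replicate 2 was highest of its group for 45 members, control replicate 4 lowest for 40 and MCT4-KO replicate 1 lowest for 42. Levels are CPM, counts scaled to depth and by TMM, changes are log2 fold changes ± SE with n = 4 libraries per group, and the words rise and fall are kept for genes with an edgeR adjusted p under 0.05.

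At 20% oxygen the 78 genes together took 0.392 ± 0.013% of the counts in controls and 0.393 ± 0.012% in MCT4-KO libraries, against 0.318 ± 0.011% and 0.334 ± 0.0032% at 2% oxygen (SD, n = 4). In single libraries the shares ran from 0.378% to 0.405% at 20% oxygen and from 0.311% to 0.337% at 2%, so the 2 oxygen levels did not overlap. After TMM scaling, which sets the bulk of genes level, the sums lay closer together. They were 3547.7 to 3840.7 CPM in controls and 3545.5 to 3762 CPM in MCT4-KO at 20%, and 3357 to 3669 CPM and 3457 to 3573 CPM at 2%. On that scale the highest control library at 2% oxygen, replicate 4, lay among the libraries at 20%, and without it the controls at 2% averaged 3379 ± 33.4 CPM (n = 3). TMM factors were 1.06 to 1.08 at 20% oxygen and 0.912 to 0.953 at 2%, so the lower share and the smaller difference after scaling are the same counts on 2 scales. In bulk RNA, fewer cells of a type and less RNA per cell cannot be told apart.

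**Figure D1:**
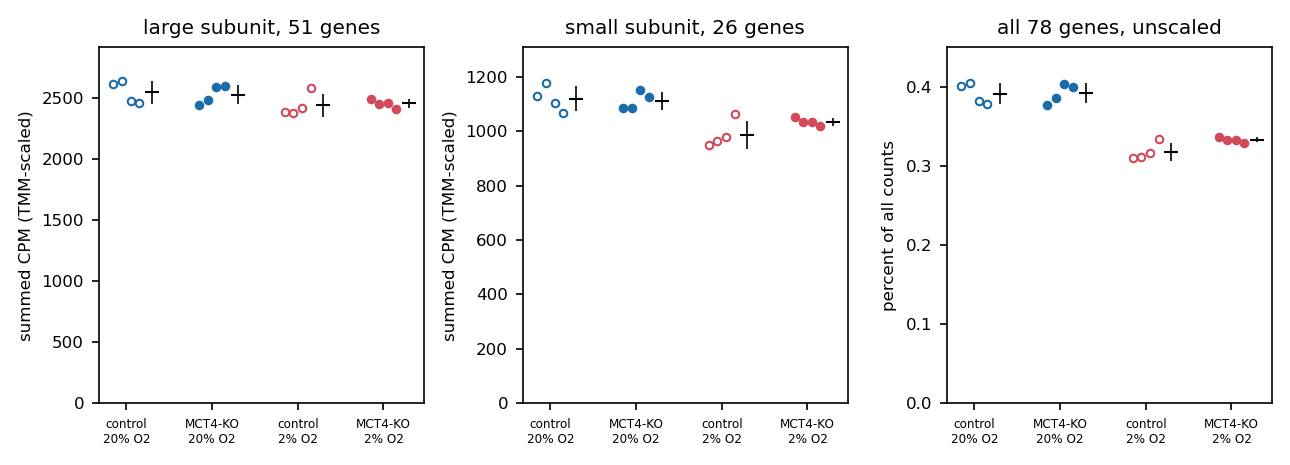
Summed level of the 51 large subunit genes and of the 26 small subunit genes (vertical axis, TMM-scaled CPM) and share of all counts taken by the 78 genes (vertical axis, percent, unscaled) by library for the 4 groups. Points are libraries and the cross with its bar is the mean with 1 SD (n = 4); the share lies between 0.311% and 0.337% at 2% oxygen and between 0.378% and 0.405% at 20%.

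Single members differed widely in level. Mean CPM over the 16 libraries ran from 6.60 to 134 with a median of 46.5. Per transcript length, as TPM over all genes with a length, Mrpl33 (ENSMUSG00000106918, chromosome 5, 31596935 to 31664384, plus strand, GRCm38), a short protein of the large subunit, was the most abundant of its subunit at 226 TPM, and Mrpl47 (ENSMUSG00000037531, chromosome 3, 32725397 to 32737605, minus strand), the counterpart of bacterial L29, the least at 10.8 TPM. In the small subunit Mrps21 (ENSMUSG00000054312, chromosome 3, 95862634 to 95871519, minus strand) led with 194 TPM and Mrps35 (ENSMUSG00000040112, chromosome 6, 147042764 to 147073991, plus strand), a protein without a bacterial counterpart, came last at 13.6 TPM. These levels use the median length of a gene's coding transcripts, so a gene expressed mainly from a shorter or longer transcript can read low or high. Mrpl23, the gene at 6.60 CPM, is uncertain, since its pseudogene Mrpl23-ps1 was given 61.2 CPM and reads may have been divided wrongly between them. Another 33 members share exon bases with another gene, and without a stated strand setting their reads cannot be told from that gene's. Mrps18b, Mrps6, Mrps7, Mrps18c, Mrpl9, Mrpl12, Mrpl14, Mrpl33, Mrpl47, Mrpl48 and Mrpl58 are among them.

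In control cells low oxygen split the members: 18 of 78 rose and 37 fell, where 38.7% of all 13774 tested genes rose and 39.6% fell. The members' median change was -0.11 and that of all tested genes -0.017. The largest falls were in the small subunit, in Mrps18b (-1.32), Mrps6 (-1.07) and Mrps7 (-0.76), and the largest rises were Mrpl14 (0.87) and Mrpl45 (0.80) of the large subunit and Mrps21 (0.64) of the small one. Of 26 small subunit genes 7 rose and 13 fell, and of 51 large subunit genes 11 rose and 24 fell. Without control replicate 4 at 2% oxygen 53 members were called, 26.4% of them higher, beside 32.7% of the 55 called with it. In the small subunit 4 then rose and 14 fell. Among 46 members with a bacterial counterpart 12 rose and 22 fell, and among 31 members specific to mitochondria 6 rose and 15 fell, so both origins held genes of both directions. Mrps18a and Mrps18b were counted as specific to mitochondria here, although both are homologs of bacterial S18. A change of at least 1.5-fold was seen in 13 of the 55 called genes, and all tested genes were not counted at that size. The quartiles of the log2 change were -0.38 and 0.10 for the members and -0.46 and 0.47 for all tested genes.

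The direction of the smaller changes depends on the scaling. With libraries scaled by their size alone, the median of all tested genes moved to -0.22 in control and -0.19 in MCT4-KO cells, and the members' medians to -0.32 and -0.21. The share of called members that were higher at 2% oxygen went from 32.7% to 15.2% in control and from 40.4% to 18.6% in MCT4-KO cells. All tested genes moved too: in control cells 28.1% were then higher and 51.7% lower, beside 38.7% and 39.6% with TMM. In MCT4-KO cells 27.6% were then higher and 50.4% lower, beside 37.7% and 38.7%. Oxygen also moved other quantities: transcripts of the mitochondrial genome took 0.750 ± 0.179% of the counts in control libraries at 20% oxygen and 0.298 ± 0.044% at 2%. Among the 10 myeloid markers Elane, a protease of neutrophil granules, read 647 to 723 CPM in control libraries at 20% oxygen and 3597 to 3876 CPM at 2%, while the other 9 summed to 2206 to 2248 CPM and 2128 to 2213 CPM. Single markers within that sum were not level: over the 16 libraries Mpo ran from 127 to 470 CPM and Hoxa9 from 233 to 458 CPM. The part of these quantities in the members' changes was not tested.

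Mrps18b (ENSMUSG00000024436, chromosome 17, 35910379 to 35916389, minus strand, GRCm38) encodes 1 of the small subunit's homologs of bacterial S18. In control cells it read 62.4, 72.7, 69.2 and 65.1 CPM at 20% oxygen and 26.8, 28.2, 26.3 and 26.7 CPM at 2%. In MCT4-KO cells it read 67.8, 65.7, 63.8 and 62.3 CPM at 20% and 37.2, 36.7, 32.6 and 34.7 CPM at 2%. Every library at 2% oxygen was below every library at 20%, and at 2% every MCT4-KO library was above every control library. The gene fell in low oxygen, with a log2 change of -1.32 ± 0.052 (edgeR adjusted p = 2.86e-15) in control cells and -0.88 ± 0.05 (edgeR adjusted p = 1.44e-12) in MCT4-KO cells. The test of the difference between these responses gave 0.44 ± 0.072 (edgeR adjusted p = 2.16e-04).

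Mrps2 (ENSMUSG00000035772, chromosome 2, 28468066 to 28471178, plus strand), counterpart of bacterial S2, read 41.3, 47.9, 47.97 and 42.7 CPM in control cells at 20% oxygen and 25.6, 28.5, 26.8 and 27.03 CPM at 2%. The MCT4-KO libraries stood at 48.5, 45.4, 45.8 and 42.7 CPM at 20% and 35.9, 37.1, 36.4 and 33.9 CPM at 2%. Its 4 groups overlapped at 20% oxygen and separated at 2%, with control lowest and MCT4-KO between control at 2% and the libraries at 20%. The change with low oxygen was -0.74 ± 0.055 (edgeR adjusted p = 1.06e-10) in controls and -0.35 ± 0.052 (edgeR adjusted p = 4.97e-06) in MCT4-KO cells. Their difference was 0.39 ± 0.076 (edgeR adjusted p = 9.63e-04).

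Mrps6 (ENSMUSG00000039680, chromosome 16, 92058270 to 92112227, plus strand), counterpart of bacterial S6, was less abundant at 2% oxygen. It read 20.5, 22.2, 22.2 and 20.2 CPM in controls and 20.1, 19.1, 20.6 and 19.8 CPM in MCT4-KO cells at 20% oxygen. At 2% it read 9.59, 9.89, 9.81 and 11.3 CPM in controls and 11.3, 10.7, 10.7 and 10.7 CPM in MCT4-KO cells. The oxygen levels lay far apart and the genotypes overlapped at 2%. The changes with low oxygen were -1.07 ± 0.057 (edgeR adjusted p = 4.75e-13) in controls and -0.87 ± 0.056 (edgeR adjusted p = 1.13e-11) in MCT4-KO cells, and their difference did not pass the test at 0.19 ± 0.08 (edgeR adjusted p = 0.093). It did without control replicate 4 at 2% oxygen, at 0.25 (adjusted p = 0.0213) in edgeR.

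Mrps7 (ENSMUSG00000046756, chromosome 11, 115603925 to 115608036, plus strand), counterpart of bacterial S7 in the head of the small subunit, read 68.5, 74.7, 68.6 and 69.3 CPM in controls and 67.7, 69.8, 72.5 and 69.7 CPM in MCT4-KO cells at 20% oxygen. At 2% the values were 36.3, 41.7, 42.7 and 45.6 CPM and 45.4, 42.9, 44.5 and 39.9 CPM. Genotypes overlapped at both oxygen levels, and all libraries at 2% were below all at 20%. The gene fell, with log2 changes of -0.76 ± 0.054 (edgeR adjusted p = 5.90e-11) in controls and -0.70 ± 0.054 (edgeR adjusted p = 2.38e-10) in MCT4-KO cells.

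Mrpl14 (ENSMUSG00000023939, chromosome 17, 45686322 to 45698495, plus strand), counterpart of bacterial L14 at the face between the subunits, went the other way. It read 25.3, 24.9, 21.7 and 24.4 CPM in controls and 22.6, 24.8, 25.1 and 26.8 CPM in MCT4-KO cells at 20% oxygen. At 2% it read 43.04, 42.5, 46.5 and 44.1 CPM and 41.9, 42.00, 40.99 and 41.7 CPM. All 8 libraries at 2% oxygen were above all 8 at 20%. The rise was 0.87 ± 0.051 (edgeR adjusted p = 2.33e-12) in controls and 0.74 ± 0.051 (edgeR adjusted p = 3.12e-11) in MCT4-KO cells.

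Mrpl45 (ENSMUSG00000018882, chromosome 11, 97315716 to 97329920, plus strand), a mitochondria-specific protein by the exit tunnel, rose in the same way. Its levels were 53.9, 53.5, 52.3 and 48.6 CPM in controls and 51.4, 52.9, 56.3 and 53.9 CPM in MCT4-KO cells at 20% oxygen. They were 90.5, 89.5, 85.2 and 96.3 CPM and 82.9, 84.9, 84.4 and 81.9 CPM at 2%. The rise was 0.80 ± 0.042 (edgeR adjusted p = 3.51e-13) in controls and 0.64 ± 0.041 (edgeR adjusted p = 1.45e-11) in MCT4-KO cells, with no overlap between oxygen levels. Within 2% oxygen the MCT4-KO libraries were all below the control libraries, with a change of -0.11 ± 0.04 (edgeR adjusted p = 0.0316), and without control replicate 4 that change was -0.08 (adjusted p = 0.112) in edgeR. Leaving out any of 5 other libraries of that comparison, or scaling by library size, also ended the call.

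Mrpl28 (ENSMUSG00000024181, chromosome 17, 26123500 to 26126613, plus strand), counterpart of bacterial L28, read 39.4, 38.9, 37.3 and 37.4 CPM in controls and 37.6, 39.7, 38.7 and 37.8 CPM in MCT4-KO cells at 20% oxygen, and 57.3, 55.2, 56.01 and 65.9 CPM and 63.02, 62.3, 63.7 and 59.8 CPM at 2%. It rose by 0.61 ± 0.047 (edgeR adjusted p = 1.98e-10) in controls and 0.69 ± 0.047 (edgeR adjusted p = 2.68e-11) in MCT4-KO cells. The knockout change of Mrpl28 at 2% oxygen, 0.086 ± 0.046 (edgeR adjusted p = 0.145), was 0.15 (adjusted p = 0.0026) without control replicate 4, and its interaction, 0.079 ± 0.067 (edgeR adjusted p = 0.431), was 0.14 (adjusted p = 0.0468), both then called. Mrps21, counterpart of bacterial S21, read 44.2, 45.7, 39.6 and 36.2 CPM in controls and 36.7, 40.7, 41.1 and 39.1 CPM in MCT4-KO cells at 20% oxygen, and 58.2, 59.3, 64.8 and 75.6 CPM and 60.2, 56.3, 58.5 and 58.1 CPM at 2%. It rose by 0.64 ± 0.074 (edgeR adjusted p = 1.07e-07) and 0.56 ± 0.074 (edgeR adjusted p = 7.31e-07). In both genes the libraries at 2% oxygen lay above those at 20%, and the highest of all was control replicate 4.

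**Figure D2:**
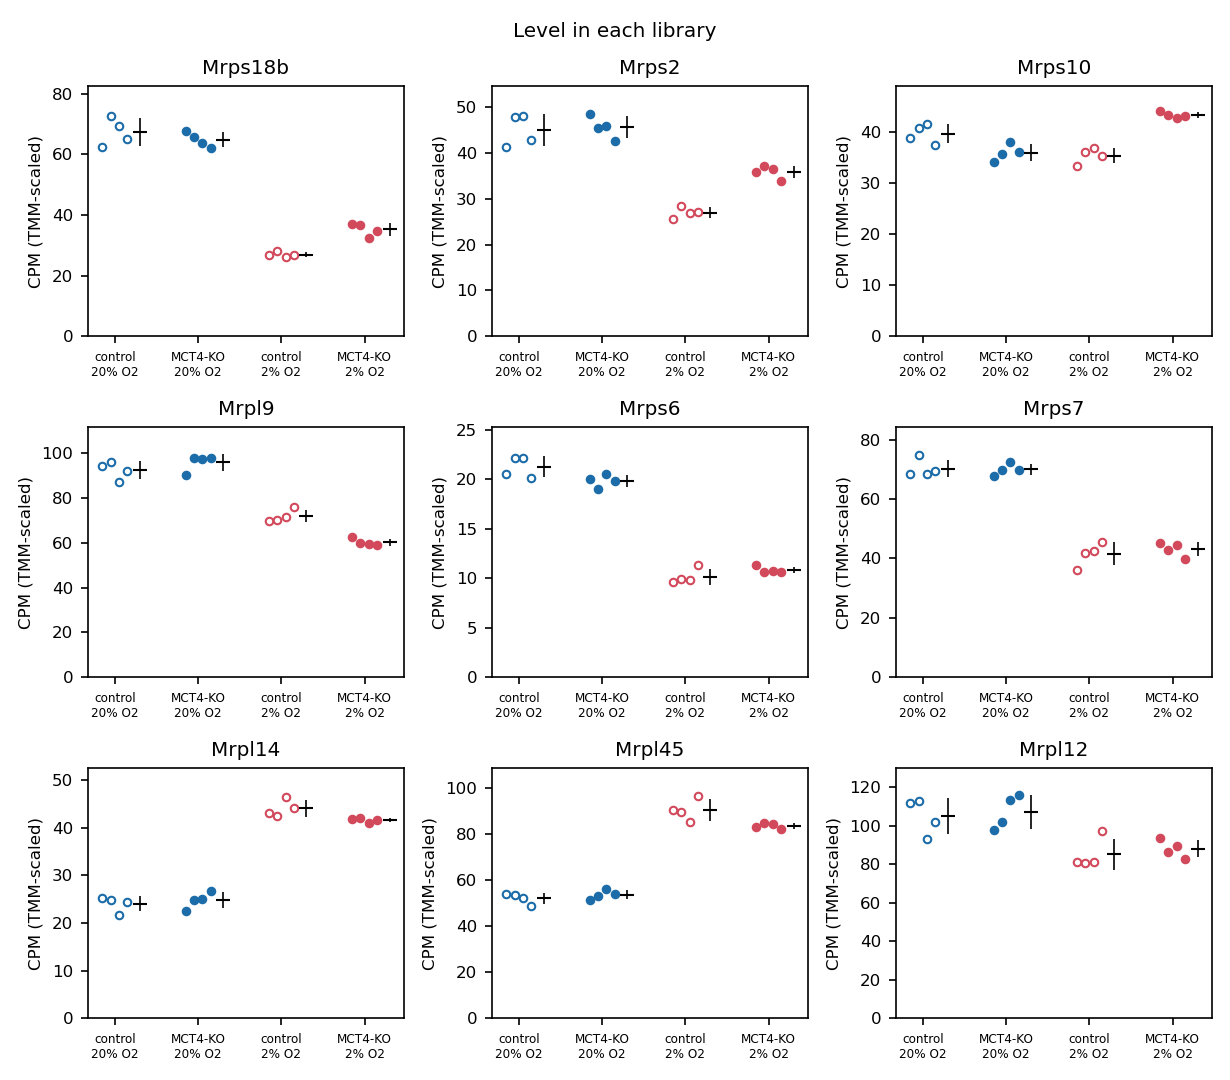
Level (vertical axis, TMM-scaled CPM) of 9 mitochondrial ribosomal protein genes by library for the 4 groups, where open points are control, filled points MCT4-KO, and crosses with bars the mean with 1 SD (n = 4). Mrps18b and Mrps2 were lower at 2% oxygen and, within 2%, higher in MCT4-KO than in control, while Mrpl14 and Mrpl45 were higher at 2% oxygen in both genotypes.

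In MCT4-KO cells low oxygen raised 23 members and lowered 34, against 37.7% and 38.7% of all tested genes. The median change was -0.036 for the members and -0.014 for all tested genes. In the large subunit 14 of 51 rose and 24 fell, and in the small subunit 8 of 26 rose and 10 fell. The oxygen comparisons of the genotypes share no library: 16 members rose in both (88.9% of those that rose in control, 69.6% of those that rose in MCT4-KO cells) and 29 fell in both (78.4% and 85.3%). In all, 45 members were called in the same direction, of 55 called in control and 57 in MCT4-KO cells. Among all tested genes 9195 were, of 10790 called in control and 10520 in MCT4-KO cells. Across the 78 members the log2 changes had r = 0.93, and across all 13774 tested genes r = 0.91, given as a description since genes are not independent replicates and share depth and composition within a library. Of the 45 members called in the same direction, 30 changed less in MCT4-KO than in control cells, 21 of the 29 that fell and 9 of the 16 that rose. That is 66.7% of them, and 61.0% of the 9195 genes called in the same direction among all tested genes.

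**Figure D3:**
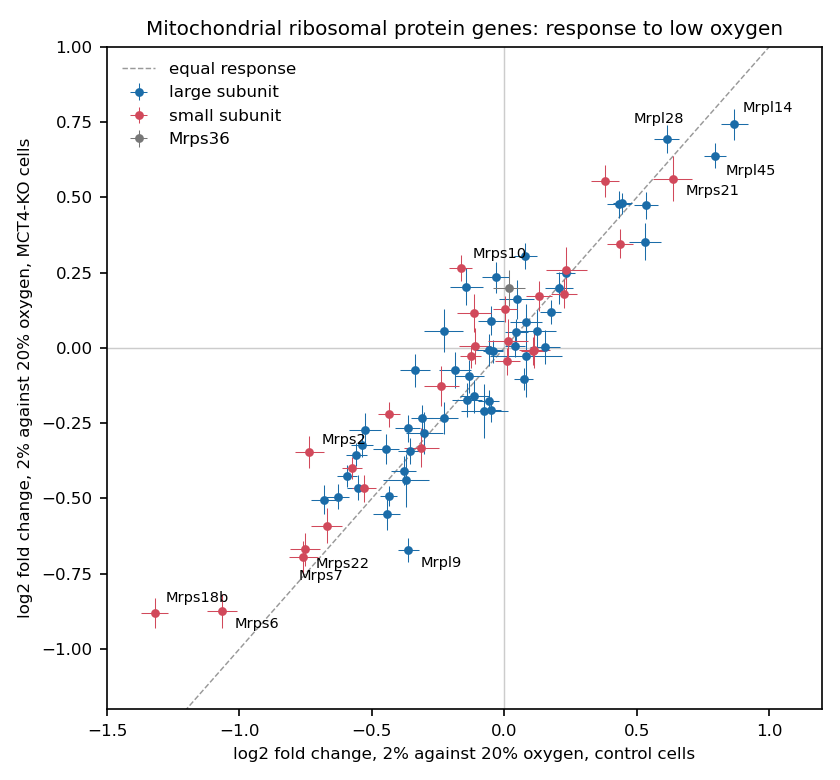
Change with low oxygen in control cells (horizontal axis, log2 fold change of 2% against 20% oxygen) and in MCT4-KO cells (vertical axis, the same) for the 78 genes, with bars of 1 SE and the dashed line marking equal responses. Most genes lie near the line, while Mrps18b, Mrps2 and Mrps10 lie above it and Mrpl9 below it.

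The interaction, the knockout effect at 2% oxygen less that at 20%, was called in 16 members, 14 of them higher and 2 lower, where 11.6% of all tested genes were higher and 11.3% lower. The members' median was 0.040 and that of all tested genes 0.0043. Of the 14, 9 belong to the large and 5 to the small subunit, and both that were lower, Mrpl9 and Mrpl48, to the large subunit. Without control replicate 4 at 2% oxygen 16 were higher and 2 lower. A member called in both oxygen comparisons in opposite directions occurred in 2 cases, Mrps10 and Mrpl42, of which Mrpl42 was singled out after its values were seen. Without control replicate 4 at 2% oxygen the cases were Mrps10 and Mrpl17, with DESeq2 size factors Mrps10 and Mrpl48, and with library-size scaling Mrpl15 alone.

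Mrps10 (ENSMUSG00000034729, chromosome 17, 47368887 to 47381417, plus strand), counterpart of bacterial S10, read 38.9, 40.9, 41.7 and 37.5 CPM in controls and 34.1, 35.7, 38.2 and 36.1 CPM in MCT4-KO cells at 20% oxygen. At 2% it read 33.4, 36.1, 36.9 and 35.3 CPM in controls and 44.1, 43.4, 42.7 and 43.2 CPM in MCT4-KO cells. At 2% every MCT4-KO library was above every control library, while at 20% the genotypes overlapped. It fell with low oxygen in control cells, at -0.17 ± 0.044 (edgeR adjusted p = 0.00189), and rose in MCT4-KO cells, at 0.27 ± 0.043 (edgeR adjusted p = 1.15e-05), and the test of this difference gave 0.43 ± 0.061 (edgeR adjusted p = 6.75e-05). With library-size scaling the rise in MCT4-KO cells was 0.087 (adjusted p = 0.0678) in edgeR. Mrpl42 (ENSMUSG00000062981, chromosome 10, 95480805 to 95501940, minus strand), specific to mitochondria, changed with low oxygen by -0.14 ± 0.062 (edgeR adjusted p = 0.0412) in control, 0.20 ± 0.061 (edgeR adjusted p = 0.00519) in MCT4-KO cells, with a difference of 0.35 ± 0.087 (edgeR adjusted p = 0.00705). Its control library replicate 4 at 2% oxygen read 36.7 CPM, below the others of its group at 45.5, 46.8 and 47.7 CPM. Without it the fall of Mrpl42 in control cells was no longer called, at -0.067 (adjusted p = 0.191) in edgeR, and the call was also lost without control replicate 1, 2 or 3 at 20% oxygen and with DESeq2 size factors. The interaction without it was 0.27 (adjusted p = 0.00377) in edgeR, and with library-size scaling the rise in MCT4-KO cells was 0.025 (adjusted p = 0.723).

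At 2% oxygen the knockout raised 22 members and lowered 8, where 19.4% of all tested genes rose and 19.1% fell. The members' median change was 0.046 and that of all tested genes -0.0040. All changes were small, from -0.27 to 0.41, and none reached 1.5-fold. The quartiles were -0.047 and 0.14 for the members and -0.16 and 0.14 for all tested genes. In the small subunit 9 of 26 genes rose and 0 fell in edgeR (1 was lower at an unadjusted p under 0.05, limma-voom and DESeq2 called 0 lower, and without control replicate 1 Mrps21 was called lower at -0.19 (adjusted p = 0.0481) in edgeR), and in the large subunit 13 of 51 rose and 8 fell. Of the 30 called genes 24 (80.0%) had no overlap between control and MCT4-KO libraries, which held for 85.3% of all called genes, and 32.8% of all tested genes were both called and without overlap. Without control replicate 4, 22 rose and 4 fell, and without MCT4-KO replicate 4, 5 fell. With library-size scaling the share of called members that were higher went from 73.3% to 85.7%.

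The largest rises at 2% oxygen were Mrps2 at 0.41 ± 0.056 (edgeR adjusted p = 1.09e-05), Mrps18b at 0.39 ± 0.054 (edgeR adjusted p = 1.57e-05) and Mrps10 at 0.29 ± 0.044 (edgeR adjusted p = 3.02e-05), whose library values are given above. All encode small subunit proteins. Mrpl52, Mrpl9 and Mrpl48, of the large subunit, had the largest falls.

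Mrpl9 (ENSMUSG00000028140, chromosome 3, 94443318 to 94451130, plus strand), counterpart of bacterial L9, read 94.3, 96.2, 87.1 and 91.9 CPM in controls and 90.4, 97.7, 97.5 and 97.6 CPM in MCT4-KO cells at 20% oxygen. At 2% it read 69.8, 70.2, 71.6 and 75.9 CPM and 62.5, 59.8, 59.6 and 58.8 CPM. The genotypes overlapped at 20% oxygen and were apart at 2%, with MCT4-KO lower. The knockout changed it by -0.26 ± 0.04 (edgeR adjusted p = 4.93e-05) at 2% oxygen, and low oxygen by -0.36 ± 0.039 (edgeR adjusted p = 3.75e-08) in controls and -0.67 ± 0.039 (edgeR adjusted p = 2.72e-12) in MCT4-KO cells. The interaction was -0.31 ± 0.055 (edgeR adjusted p = 4.99e-04).

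Mrpl48 (ENSMUSG00000030706, chromosome 7, 100545751 to 100608301, minus strand), specific to mitochondria, read 66.5, 71.4, 68.96 and 63.7 CPM in controls and 66.1, 64.2, 63.9 and 64.3 CPM in MCT4-KO cells at 20% oxygen, and 72.1, 69.04, 70.2 and 73.2 CPM and 59.1, 59.6, 61.97 and 59.7 CPM at 2%. Again the genotypes were apart at 2% oxygen only, with a change of -0.24 ± 0.036 (edgeR adjusted p = 2.97e-05) and an interaction of -0.18 ± 0.051 (edgeR adjusted p = 0.0162). Mrpl52 (ENSMUSG00000010406, chromosome 14, 54426909 to 54429756, plus strand), also specific to mitochondria, read 24.8, 21.9, 26.9 and 32.9 CPM in controls and 22.5, 23.3, 20.8 and 21.5 CPM in MCT4-KO cells at 2% oxygen, which overlapped, and 28.9, 29.9, 26.3 and 26.8 CPM and 22.7, 25.9, 25.3 and 27.9 CPM at 20%. Its change at 2%, -0.27 ± 0.091 (edgeR adjusted p = 0.0229), rested on control replicate 4: without that library it was -0.15 (adjusted p = 0.111) in edgeR, and leaving out MCT4-KO replicate 3 or 4 at 2% oxygen also ended the call. With low oxygen Mrpl52 changed by -0.075 (edgeR adjusted p = 0.444) in control cells. Without control replicate 4 at 2% oxygen that was -0.19 (adjusted p = 0.0178) in edgeR and then called. In MCT4-KO cells it fell, at -0.21 (edgeR adjusted p = 0.0389), a call lost on leaving out any of 6 of the 8 libraries.

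At 20% oxygen the knockout changed 1 member: 0 rose and Mrps10 fell, at -0.14 ± 0.043 (edgeR adjusted p = 0.0458), where 4.96% of all tested genes rose and 4.8% fell. At an unadjusted p under 0.05 edgeR had 0 higher and 3 lower members, limma-voom called 0 higher and 1 lower, and DESeq2's Wald test called 0 in either direction. The members' median was -0.0074 and that of all tested genes -0.0051. All 78 changes lay between -0.14 and 0.074. The call on Mrps10 was lost on leaving out any of 6 of the 8 libraries (control replicates 1, 2 and 3 and MCT4-KO replicates 1, 2 and 4), with adjusted p up to 0.132 in edgeR. In simulated counts for this comparison, at levels of at least 5 CPM, the test called 75% of 36 genes changed 1.2-fold and 100% of 32 changed 1.5-fold. Counts were drawn for each gene independently, without shifts of whole libraries, and changes below 1.2-fold were not simulated. The simulation therefore does not show how often changes as small as those of the members would be called.

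**Figure D4:**
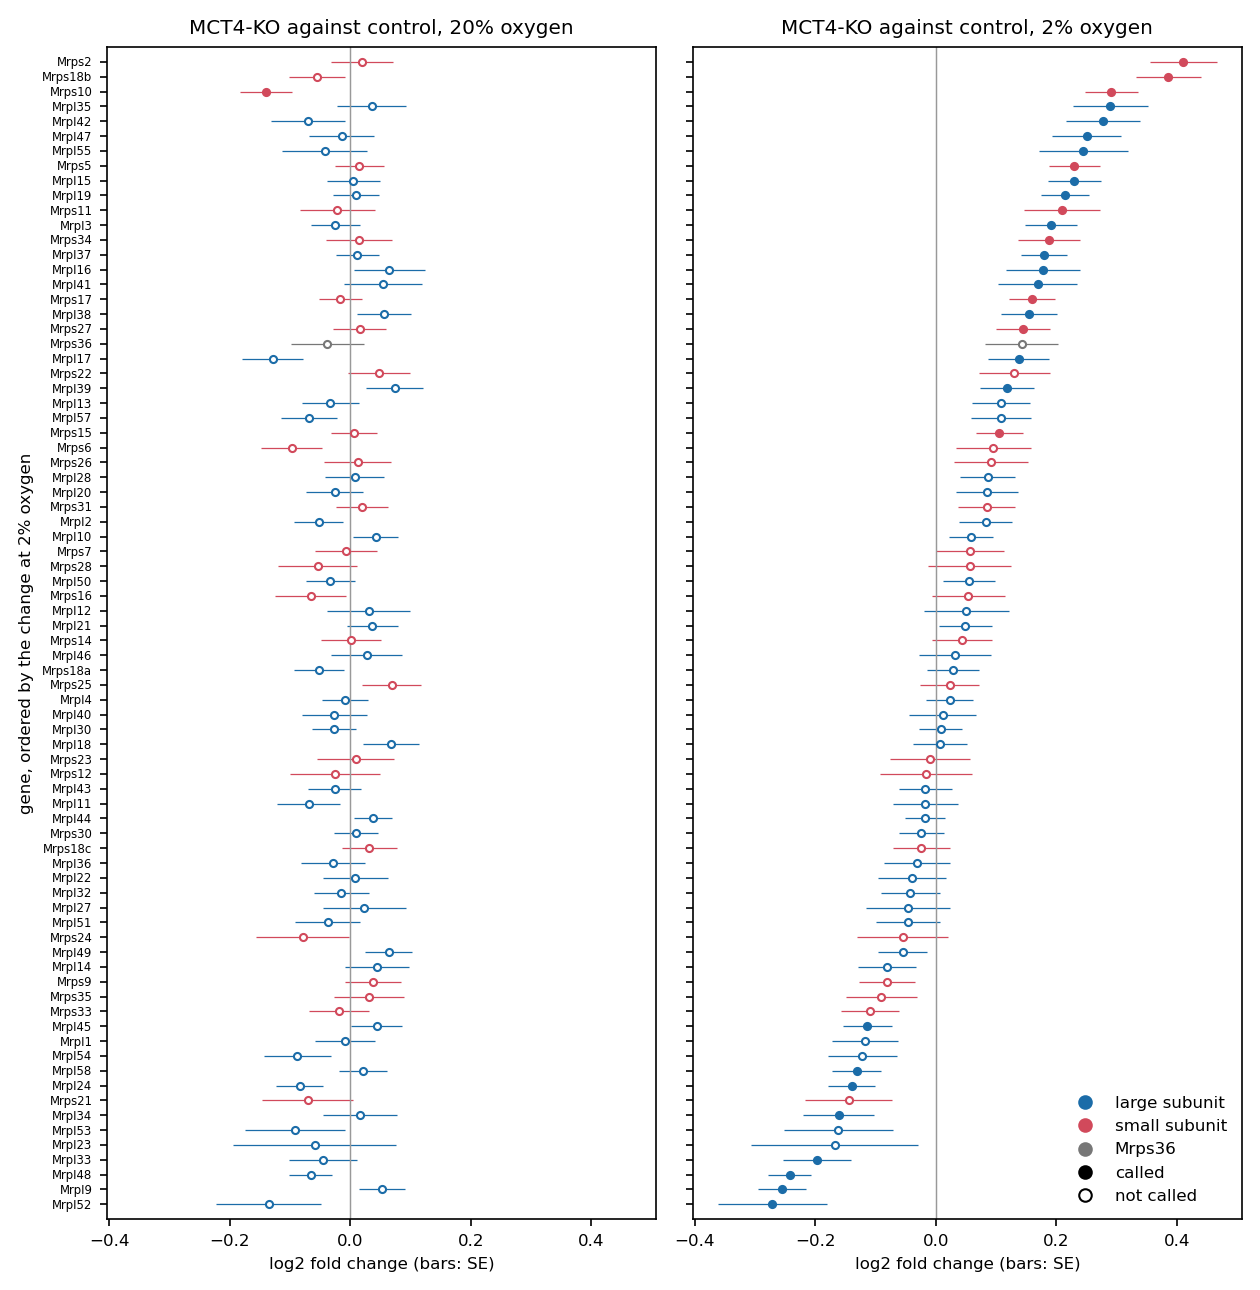
Change in MCT4-KO against control cells (horizontal axes, log2 fold change with bars of 1 SE) for each of the 78 genes (vertical axis, ordered by the change at 2% oxygen) at 20% oxygen and at 2% oxygen. Filled points passed the test; at 20% oxygen 1 gene did, and at 2% oxygen 30 did, 22 higher and 8 lower.

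Several members have roles beyond or apart from a plain structural part. Mrpl12 (ENSMUSG00000039640, chromosome 11, 120484613 to 120489065, plus strand), the stalk protein counterpart of bacterial L7/L12, has also been reported to bind the mitochondrial RNA polymerase. It read 112, 113, 92.9 and 102 CPM in controls and 97.6, 102, 113 and 116 CPM in MCT4-KO cells at 20% oxygen, and 81.1, 80.8, 81.1 and 97.4 CPM and 93.6, 86.5, 89.2 and 82.9 CPM at 2%. It fell with low oxygen, at -0.30 ± 0.07 (edgeR adjusted p = 5.34e-04) in controls and -0.28 ± 0.069 (edgeR adjusted p = 9.64e-04) in MCT4-KO cells, although control replicate 4 at 2% oxygen stood above control replicate 3 at 20%. The knockout changes were 0.031 ± 0.068 and 0.05 ± 0.07 and did not pass the test (edgeR adjusted p = 0.84 and 0.612).

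Mrpl58 (ENSMUSG00000018858, chromosome 11, 115403752 to 115412674, plus strand), a peptidyl-tRNA hydrolase built into the large subunit, read 57.4, 60.00, 54.4 and 56.5 CPM in controls and 55.5, 58.2, 59.8 and 58.1 CPM in MCT4-KO cells at 20% oxygen, and 51.5, 54.1, 57.3 and 57.6 CPM and 50.1, 49.2, 49.98 and 51.9 CPM at 2%. In MCT4-KO cells it fell with low oxygen, at -0.20 ± 0.041 (edgeR adjusted p = 1.25e-04), and in control cells the value was -0.052 ± 0.041 (edgeR adjusted p = 0.25), which became -0.26 (adjusted p = 7.04e-06) with library-size scaling. The interaction was -0.15 ± 0.058 (edgeR adjusted p = 0.0614). The knockout change at 2% was -0.13 ± 0.041 (edgeR adjusted p = 0.0156), which was lost without control replicate 4 at -0.11 (adjusted p = 0.0516) in edgeR, and on leaving out control replicate 3 or MCT4-KO replicate 2, and with library-size scaling. Mrps36 (ENSMUSG00000061474, chromosome 13, 100735955 to 100744659, minus strand) read 24.6, 27.4, 23.7 and 21.9 CPM in controls and 22.1, 25.2, 22.8 and 24.8 CPM in MCT4-KO cells at 20% oxygen, and 24.5, 23.7, 26.3 and 24.3 CPM and 26.7, 27.9, 28.1 and 26.3 CPM at 2%. It rose with low oxygen in MCT4-KO cells by 0.20 ± 0.06 (edgeR adjusted p = 0.00537), a call that library-size scaling ended at 0.02 (adjusted p = 0.768), while its control value of 0.017 ± 0.061 (edgeR adjusted p = 0.801) turned to -0.19 (adjusted p = 0.00805) with that scaling.

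The products of 3 members are homologs of bacterial S18. Beside Mrps18b, Mrps18a (ENSMUSG00000023967, chromosome 17, 46110986 to 46128910, plus strand) sits in the large subunit despite its name and Mrps18c (ENSMUSG00000016833, chromosome 5, 100798627 to 100804471, plus strand) in the small one. Mrps18a read 43.6, 44.2, 42.1 and 41.4 CPM in controls and 40.3, 43.3, 40.7 and 41.03 CPM in MCT4-KO cells at 20% oxygen, and 34.2, 32.6, 35.2 and 36.1 CPM and 37.2, 35.9, 33.4 and 34.5 CPM at 2%. It fell, at -0.31 ± 0.043 (edgeR adjusted p = 1.32e-06) in controls and -0.23 ± 0.042 (edgeR adjusted p = 5.23e-05) in MCT4-KO cells, with every library at 2% below every library at 20%. Mrps18c read 29.6, 31.1, 28.8 and 27.8 CPM in controls and 28.4, 28.9, 31.4 and 31.03 CPM in MCT4-KO cells at 20% oxygen, and 29.4, 28.8, 29.2 and 30.9 CPM and 28.9, 27.8, 29.4 and 30.2 CPM at 2%. Its groups overlapped throughout and no comparison called it, with 0.011 ± 0.047 in control cells (edgeR adjusted p = 0.8287). With library-size scaling that value was -0.19 (adjusted p = 6.23e-04), and in MCT4-KO cells it went from -0.045 ± 0.046 to -0.22 (adjusted p = 1.44e-04), so both were then called. Differences between these genes were not tested.

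Of the members set apart by their level, Mrpl33 read 64.7, 61.2, 61.1 and 60.3 CPM in controls and 54.9, 58.9, 63.05 and 62.6 CPM in MCT4-KO cells at 20% oxygen, and 64.3, 63.5, 69.5 and 77.8 CPM and 62.5, 57.9, 61.7 and 57.7 CPM at 2%. Its rise in control cells of 0.15 ± 0.056 (edgeR adjusted p = 0.0179) was 0.087 (adjusted p = 0.108) without control replicate 4 and -0.052 (adjusted p = 0.386) with library-size scaling. At 2% oxygen it fell in the knockout, at -0.20 ± 0.057 (edgeR adjusted p = 0.00923), and without that replicate at -0.13 (adjusted p = 0.0415). Mrpl47 read 22.97, 23.4, 23.1 and 20.2 CPM in controls and 20.3, 23.1, 22.9 and 22.4 CPM in MCT4-KO cells at 20% oxygen, and 17.7, 16.8, 17.9 and 18.5 CPM and 20.2, 20.6, 22.2 and 21.2 CPM at 2%. It fell with low oxygen in control cells, at -0.34 ± 0.057 (edgeR adjusted p = 1.65e-05), and at 2% it was higher in MCT4-KO cells by 0.25 ± 0.057 (edgeR adjusted p = 0.00176), with no overlap. The change of Mrpl47 with low oxygen in MCT4-KO cells was -0.074 (edgeR adjusted p = 0.224). With library-size scaling it was -0.25 (adjusted p = 2.98e-04) in edgeR and then called. Mrps35 read 33.6, 31.5, 29.4 and 32.7 CPM in controls and 30.1, 32.4, 36.1 and 31.4 CPM in MCT4-KO cells at 20% oxygen, and 32.7, 34.5, 33.01 and 37.5 CPM and 31.5, 34.4, 32.5 and 30.98 CPM at 2%, and no comparison called it with TMM scaling and all libraries. With library-size scaling its change with low oxygen in MCT4-KO cells was -0.19 (adjusted p = 0.00685), and without control replicate 1 at 2% oxygen that in control cells was 0.14 (adjusted p = 0.0498).

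Partners of the mitochondrial ribosome were read from lists of the same pathway, beside the 38.7% of all tested genes that rose and the 39.6% that fell with low oxygen in control cells. Of 5 ribosomal proteins whose symbol is not Mrp, low oxygen raised 3 and lowered 1 in control cells, with Dap3, a small subunit protein, at 0.51 ± 0.032 and Ptcd3, another, at -0.52 ± 0.043. Of 27 genes for assembly of the ribosome and modification of its RNA, 3 rose and 19 fell, among them Mrm3, a ribosomal RNA methyltransferase, at -1.90 ± 0.092 and Mtg2, a GTPase of large subunit assembly, at -0.93 ± 0.049. Of 17 translation factors 4 rose and 13 fell, with Mtif2, the initiation factor, at -0.44 ± 0.035. The median changes were -0.42 for assembly genes and -0.36 for translation factors, beside -0.11 for the members.

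The RNAs that this ribosome holds or reads come from the mitochondrial genome. All 13 mitochondrial messenger RNAs fell in control cells, with a median of -1.54, and all 13 in MCT4-KO cells, with a median of -1.22. By contrast the 12S ribosomal RNA, mt-Rnr1, rose by 0.82 ± 0.076 in controls and 1.49 ± 0.076 in MCT4-KO cells. The 16S RNA, mt-Rnr2, stood at -0.097 ± 0.094 in control, which was not called, and rose by 0.25 ± 0.093 in MCT4-KO cells. Libraries were made from poly(A) RNA, so levels of mitochondrial RNAs, whose tails are short or absent, depend on that selection, and its part was not tested.

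In the knockout at 2% oxygen, where 19.4% of all tested genes rose and 19.1% fell, 7 of the 13 messenger RNAs rose, both ribosomal RNAs rose, and of 17 translation factors 8 rose and 1 fell, with Gfm2, a factor of ribosome recycling, at 0.30 ± 0.036. Of 27 assembly genes 7 rose and 4 fell, led by Mrm3 at 0.52 ± 0.11, and Ptcd3 rose by 0.48 ± 0.043. Among 10 activators of nuclear genes for mitochondria, 2 rose and 2 fell. Myc rose by 0.43 ± 0.046 and Pprc1, a coactivator related to PGC-1, by 0.51 ± 0.065, and the larger of the falls was that of Esrra, a nuclear receptor that works with PGC-1, at -0.16 ± 0.043. With low oxygen 8 of these 10 fell in control cells, with Pprc1 at -1.60 ± 0.062 and Myc at -0.58 ± 0.046. At 20% oxygen the knockout called 1 assembly gene, Noa1 at 0.12 ± 0.036, and 1 messenger RNA, mt-Nd3 at 0.52 ± 0.089, in all of these lists.

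The members lie on most chromosomes, with 11 on chromosome 11, 8 on chromosome 17 and 7 on chromosome 6. A start facing another protein-coding gene within 1000 bases upstream, with up to 500 bases of overlap allowed, was found for 26 of 78 members (33.3%) and for 15.2% of 11968 tested protein-coding genes. Mrps11 and Mrpl46 face each other, and Mrps18b faces Ppp1r10.

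Motifs were searched on both strands of the whole RefSeq windows. The ETS motif CCGGAAG was found in 37.7% of the 69 members, in 20.9% of 9452 tested protein-coding genes and in 9.93% of all 27025 genes with a window. The NRF1 motif was in 18.8% of members, 12.01% of tested coding genes and 5.19% of all genes, and the YY1 motif AAGATGG in 18.8%, 8.70% and 7.28%. The E-box CACGTG was in 7.25% of members, 11.9% of tested coding genes and 8.09% of all genes. ACGTG, which the E-box contains, was in 23.2%, 29.6% and 21.8%. Median GC content of the windows was 58.0% in members and 60.7% in tested coding genes.

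By response in control cells, the NRF1 motif was in 6 of 17 members that rose with low oxygen, 6 of 33 that fell and 1 of 19 that were not called. The ETS motif was in 6 of 17, 9 of 33 and 11 of 19, and ACGTG in 2 of 17, 8 of 33 and 6 of 19. Of the stretches printed above, Mrpl45 holds NRF1 matches that begin 120 and 38 bases before the start and Mrpl9 one that begins 28 bases before it. These matches describe letters in a window and are not evidence of binding.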

How the data were processed

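Poly(A) RNA was sequenced from 16 libraries, 4 per group. The authors deposited 1 table of expected counts per gene. The submitters' processing notes name HISAT2, RSEM and the mm10 build; versions, annotation release and strand setting were not given in the sources used here. Deposited count values were rounded, since 10.1% were not whole. Totals ran from 21192179 to 28871459 per library. Symbols and positions came from GENCODE vM21 (GRCm38), which matched 53706 of 53801 identifiers; the rest held 0.0103% of counts.

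Genes were filtered with filterByExpr (13774 kept), scaled by TMM and fitted over all 16 libraries with 1 mean per group in edgeR 4.0.16 (R 4.3.3; 12 degrees of freedom left; biological coefficient of variation 4.61%). Quasi-likelihood F-tests were adjusted by Benjamini-Hochberg over all tested genes for each of 5 comparisons. The test was tested on simulated data, where 3.80% of calls were false. Slc16a3 was also compared by an exact permutation test (two-sided, 4 libraries against 4), which gave p = 0.0286, the smallest that 70 splits allow, at each oxygen level. The numbers of the replicates did not pair libraries across groups, and the model has no block.

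Members and lists were chosen with earlier results of these data known. Library values are given for the 3 largest rises and falls per comparison among called members of at least 5 CPM, for Mrpl12, Mrpl58, Mrps36, Mrps18a, Mrps18b and Mrps18c, and for the members highest and lowest per length in each subunit. Of each other list up to 3 called genes with the smallest adjusted p per comparison could be named. Alternatives were DESeq2 size factors, library-size scaling, no filter, a filter of 1 CPM in 8 libraries, DESeq2 1.42.0, limma-voom (limma 3.58.1), the compared groups alone, a replicate block and leaving out each library.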

Additional observations from a re-analysis of the deposited data

Results flagged for a closer look

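Groups of 4 libraries were looked at for the members chosen for library values and for the summed levels of all members and of each subunit. Of these 92 groups, 6 held a library far from the other 3 by Dixon's criterion (6.52%, where chance gives about 1 in 20). All 6 were groups of single members. Mrps7 in control cells at 20% oxygen read 74.7 CPM in replicate 2, above 68.5 to 69.3 CPM in the others. Mrpl47 in that group read 20.2 CPM in replicate 4, below 23.0 to 23.4 CPM. Mrpl9 in MCT4-KO cells at 20% oxygen read 90.4 CPM in replicate 1, below 97.5 to 97.7 CPM. In control cells at 2% oxygen replicate 4 was high for Mrps6, at 11.3 CPM against 9.59 to 9.89 CPM, and for Mrpl12, at 97.4 CPM against 80.8 to 81.1 CPM. Mrps6 in MCT4-KO cells at 2% oxygen read 11.3 CPM in replicate 1 against 10.7 CPM in each of the others.

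The knockout effect differed between 2% and 20% oxygen by the interaction test in 16 members, with log2 differences of 0.44 for Mrps18b, 0.43 for Mrps10, 0.39 for Mrps2, 0.35 for Mrpl42, 0.29 for Mrpl55, 0.27 for Mrpl17, 0.26 for Mrpl47, 0.25 for Mrpl35, 0.22 for Mrpl15, 0.22 for Mrpl3, 0.21 for Mrps5, 0.20 for Mrpl19, 0.18 for Mrps17 and 0.17 for Mrpl37. The differences were -0.31 for Mrpl9 and -0.18 for Mrpl48. Among the members chosen for library values, the call on Mrpl47 was lost without MCT4-KO replicate 3 at 2% oxygen (edgeR adjusted p = 0.0513). Over all members, leaving out that library ended 4 of the 16 calls, and leaving out each other library ended 0 to 3. Without the count filter 2 of the 16 calls were lost.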

How the results depend on the processing

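The 1 member that fell in the knockout at 20% oxygen became 0 with DESeq2 size factors, library-size scaling, no count filter, the DESeq2 Wald test and the fit of the compared groups only, and ran from 0 to 1 on leaving out a library. With library-size scaling 5 members fell in the knockout at 2% oxygen, where 14.6% of all tested genes fell. With low oxygen 10 members rose and 56 fell in control cells, and 11 rose in MCT4-KO cells. Of all tested genes 28.1% then rose and 51.7% fell in control cells, and 27.6% rose in MCT4-KO cells. The stricter filter gave 4 lower members in the interaction. Leaving out each library in turn gave 4 to 8 members lower in the knockout at 2% oxygen and 2 to 4 lower in the interaction; the causes were not tested. Changes of sign with library-size scaling are given only for members chosen for library values and called under either scaling. Among these the change with low oxygen turned negative in control cells for Mrpl48 (-0.13), Mrps36 (-0.19), Mrps18c (-0.19) and Mrpl33 (-0.052), and in MCT4-KO cells for Mrpl33 (-0.18). Over all members that scaling added 19 calls with low oxygen in control cells and 14 in MCT4-KO cells. Replicate numbers were no pairing: same-numbered libraries had correlations of -0.064 to 0.12 and 3 of 16 correlated best with their own number. The replicate block gave 19 higher and 7 lower at 2% oxygen in the knockout and 13 and 2 in the interaction, with Slc16a3 at -1.39 and -1.15. Limma-voom kept the call of all 100 gene results, and no called result changed direction. In the simulated counts for the knockout at 20% oxygen, changes of 1.2-fold were partly missed.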
